A study of Mus musculus with 4 samples.

Results

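The genes described here are 10 immediate-early genes, taken by name from the deposited table of 44509 gene symbols: Fos, Fosb, Jun, Junb, Jund, Egr1, Ier2, Atf3, Zfp36 and Dusp1. All 10 were in the table. Of these, 9 reached 1 FPKM in at least 2 of the 4 libraries and were tested among 19837 genes; Fosb did so in busulfan 1 alone and is described without a test. FPKM counts sequenced fragments relative to gene length and to all mapped fragments of a library, so that levels of different genes can be set side by side.

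The RNA came from mouse testes in a model of oligozoospermia, a shortage of sperm, produced with busulfan, an alkylating agent toxic to dividing germ cells. There were 2 libraries from the busulfan model alone (busulfan 1 and 2) and 2 after treatment of that model with Cus-1 (Cus-1 1 and 2), which the series title calls a resin glycoside from a cuscutae extract. Busulfan was thus common to all 4 libraries, and no library came from an untreated testis. The labels give no strain, age, dose or time, and they do not say whether the libraries of a group were separate animals, so p-values measure only the spread between these libraries, which may be technical. The group names rest on the source label, since the sample titles begin with BPA in the busulfan group and with CUS2 in the Cus-1 group, which the labels do not explain.

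Immediate-early genes are switched on within minutes of a stimulus, from factors already present in the cell, and their transcripts are short-lived. Growth factor, stress and cAMP signals reach them through MAP kinases and through SRF, which binds the CArG box of their promoters, ELK factors, which bind Ets sites beside it, and CREB, which binds the cAMP response element (CRE). Fos and Jun proteins pair to form the transcription factor AP-1, while Zfp36 and Dusp1 end the response, the one by destabilising mRNAs and the other by dephosphorylating MAP kinases. In the testis these genes are known in Sertoli, Leydig and other somatic cells as well as in germ cells, and in many tissues they respond to dissection and dissociation.

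Promoter sequences from RefSeq (GRCm38.p6) were found for 8 of the 10 genes, all but Egr1 and Ier2. The stretches below are shown because their genes had the widest spread between libraries (Fos, Junb, Zfp36), the narrowest in busulfan (Dusp1), or a CRE core beside the start site (Atf3). Each is printed 5′ to 3′ on the strand of the gene, with capitals for the CRE core TGACG or the full CRE TGACGTCA on either strand, the TATA-type sequence TATAAA, and the CArG box. For Zfp36 and Dusp1 the 30 bases around the motif are given. Positions count from the RefSeq start of the gene; GENCODE also annotates transcripts that start farther upstream, and a UTR of such transcripts covers all 30 bases shown for Zfp36 and the last 7 shown for Atf3, which hold its CRE core.
Fos, chr12:85473740-85473889, plus strand: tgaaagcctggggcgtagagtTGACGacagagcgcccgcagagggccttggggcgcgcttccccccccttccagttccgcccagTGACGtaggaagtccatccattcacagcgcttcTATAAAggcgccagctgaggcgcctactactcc
Junb, chr8:84978749-84978898, minus strand: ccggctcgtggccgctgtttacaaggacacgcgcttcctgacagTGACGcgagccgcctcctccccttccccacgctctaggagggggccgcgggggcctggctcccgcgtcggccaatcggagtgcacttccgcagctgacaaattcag
Atf3, chr1:191183334-191183483, minus strand: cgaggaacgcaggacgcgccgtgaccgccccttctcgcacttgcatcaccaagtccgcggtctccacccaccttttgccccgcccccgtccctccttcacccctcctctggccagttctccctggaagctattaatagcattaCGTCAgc
Zfp36, chr7:28379267-28379296, minus strand: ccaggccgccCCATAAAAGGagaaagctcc
Dusp1, chr17:26508597-26508626, minus strand: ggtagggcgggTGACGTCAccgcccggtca

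The CRE core was present within 250 bases before the start of Fos (at -129 and -66), Fosb (-60), Junb (-106), Atf3 (-7) and Dusp1, and it occurs in 17.8% of the 32851 promoters of the table. The full CRE, which contains the core, was found in Dusp1 at -143 and occurs in 1.55% of promoters. The CArG box was found in Zfp36 at -58 and occurs in 1.47%. Sites farther upstream than 250 bases were not searched, and Egr1 and Ier2 could not be searched. A motif not listed for a gene may thus still lie near it. The TATA-type sequence, at -33 in Fos, occurs in 12.4%. These matches describe the letters in the window and are not evidence of binding.

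Immediate-early transcripts were lower on average in testes given Cus-1, but no gene passed the adjusted threshold, and the difference lay mostly between busulfan 1 and Cus-1 1. All 9 tested genes had a negative log2 fold change, as did 47.6% of all tested genes. Fold changes throughout are Cus-1 minus busulfan on log2(FPKM + 1), from a limma model fitted to all tested genes, and this scale understates the change of genes with low levels. The values of single genes follow by role.

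**Figure D1:**
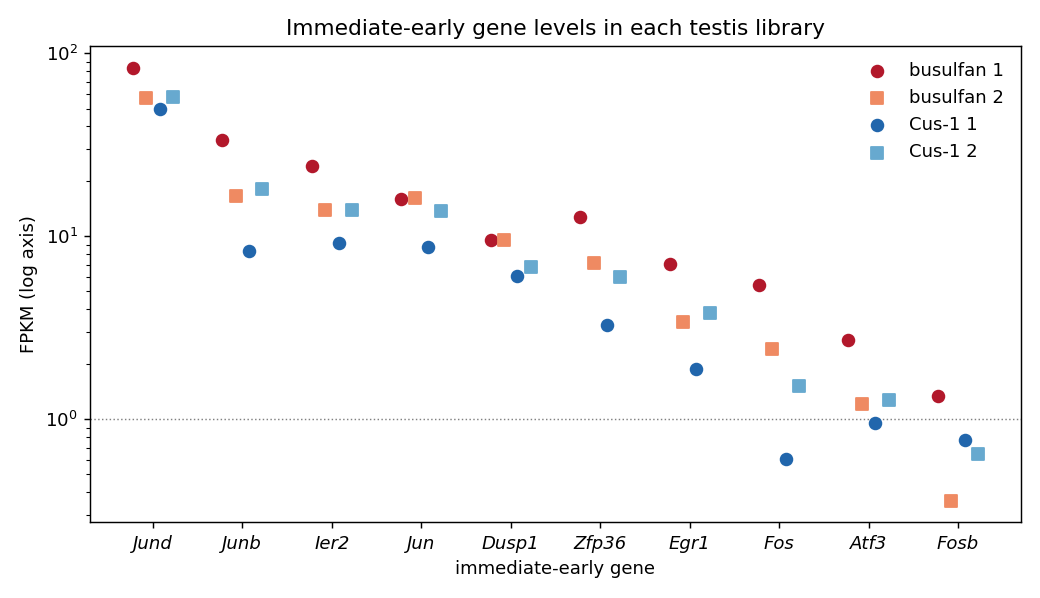
FPKM (log axis) of the 10 immediate-early genes in the 4 libraries, ordered by mean level; each point is 1 library and the dotted line is 1 FPKM. Busulfan 1 is the highest or level with busulfan 2 for every gene, Cus-1 1 is the lowest for all but Fosb, and busulfan 2 and Cus-1 2 lie close together for most genes.

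Fos, the short-lived partner of Jun proteins in AP-1 (chromosome 12, 85473890 to 85477273, plus strand, mm10), measured 5.42 FPKM in busulfan 1, 2.44 in busulfan 2, 0.61 in Cus-1 1 and 1.52 in Cus-1 2. Both Cus-1 libraries were below both busulfan libraries, and busulfan 1 was 8.89 times as high as Cus-1 1. Its log2 fold change of -1.22 (SE 0.42; adjusted p by limma 0.162) was the largest in size among the 9. It ran from -1.67 without busulfan 2 to -0.77 without busulfan 1, and was -0.53 when libraries were centred on Sertoli cell genes. The low value in Cus-1 1 corresponds to an estimated 20 fragments, so counting error is not small there.

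Fosb, a second Fos family member (chromosome 7, 19302696 to 19310051, minus strand), measured 1.35 FPKM in busulfan 1, 0.36 in busulfan 2, 0.77 in Cus-1 1 and 0.65 in Cus-1 2. The groups overlapped, with the highest and the lowest value both in the busulfan group. Busulfan 1 was 3.75 times as high as busulfan 2.

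Jun, which can pair with itself or with Fos (chromosome 4, 95049034 to 95052222, minus strand), measured 16.08 FPKM in busulfan 1, 16.18 in busulfan 2, 8.70 in Cus-1 1 and 13.79 in Cus-1 2. Here the busulfan libraries were level and both Cus-1 libraries lay below them (log2 fold change -0.52, SE 0.25; adjusted p by limma 0.227). Leaving out Cus-1 2 gave -0.82 and leaving out Cus-1 1 gave -0.21, a shift of more than the SE.

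Junb, a Jun protein that tempers growth (chromosome 8, 84974484 to 84978718, minus strand), measured 33.65 FPKM in busulfan 1, 16.60 in busulfan 2, 8.30 in Cus-1 1 and 18.12 in Cus-1 2. Cus-1 2 was above busulfan 2, so the groups overlapped, and busulfan 1 was 4.05 times as high as Cus-1 1. Its log2 fold change was -0.89 (SE 0.48; adjusted p by limma 0.256), and it was -0.37 without Cus-1 1 and -0.40 without busulfan 1. Exons of Prdx2, a peroxiredoxin gene on the opposite strand, share 173 bases with those of Junb. Prdx2 measured 212.7 FPKM in busulfan 1, 178.55 in busulfan 2, 100.0 in Cus-1 1 and 142.74 in Cus-1 2, and since no source states whether counting used strand, reads of the shared bases cannot be assigned.

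Jund, the Jun family member with steady expression in many tissues (chromosome 8, 70698949 to 70700616, plus strand), measured 83.68 FPKM in busulfan 1, 57.27 in busulfan 2, 49.77 in Cus-1 1 and 57.47 in Cus-1 2. Busulfan 2 and Cus-1 2 were level, and busulfan 1 alone stood above them. This gave a log2 fold change of -0.37 (SE 0.23; adjusted p by limma 0.306), which was -0.10 without busulfan 1. The antisense gene Gm11175 shares 877 exonic bases with Jund but was at 0.82 to 0.95 FPKM in every library.

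Egr1, a zinc finger factor induced through SRF and ELK, measured 7.09 FPKM in busulfan 1, 3.39 in busulfan 2, 1.89 in Cus-1 1 and 3.81 in Cus-1 2. The groups overlapped through busulfan 2 and Cus-1 2 (log2 fold change -0.68, SE 0.42; adjusted p by limma 0.306). Without busulfan 1 the fold change was -0.24, and without busulfan 2 it was -1.12.

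Ier2, a small nuclear protein induced by growth factors (chromosome 8, 84661331 to 84662852, minus strand), measured 24.31 FPKM in busulfan 1, 13.95 in busulfan 2, 9.20 in Cus-1 1 and 13.95 in Cus-1 2. The values of busulfan 2 and Cus-1 2 were the same to the 2 decimals of the table. A log2 fold change of -0.66 (SE 0.34; adjusted p by limma 0.242) became -0.28 without busulfan 1.

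Atf3, a stress-induced CRE-binding factor (chromosome 1, 191170296 to 191218039, minus strand), measured 2.73 FPKM in busulfan 1, 1.22 in busulfan 2, 0.95 in Cus-1 1 and 1.27 in Cus-1 2. Busulfan 1 stood apart from the other libraries, which lay within a narrow band. With all libraries the log2 fold change was -0.45 (SE 0.34; adjusted p by limma 0.382), and without busulfan 1 it was -0.08.

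Zfp36, which encodes tristetraprolin, a protein that binds AU-rich mRNAs and speeds their decay (chromosome 7, 28376784 to 28380253, minus strand), measured 12.80 FPKM in busulfan 1, 7.15 in busulfan 2, 3.27 in Cus-1 1 and 5.99 in Cus-1 2. The groups did not overlap, and busulfan 1 was 3.91 times as high as Cus-1 1. Fitted over all libraries, the log2 fold change was -0.96 (SE 0.38; adjusted p by limma 0.182). It was -0.58 without busulfan 1 and -1.34 without busulfan 2.

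Dusp1, a phosphatase of p38, JNK and ERK kinases (chromosome 17, 26505590 to 26562128, minus strand), measured 9.56 FPKM in busulfan 1, 9.58 in busulfan 2, 6.05 in Cus-1 1 and 6.78 in Cus-1 2. It had the narrowest spread within both groups among the 9, and the groups did not overlap. Its log2 fold change was -0.51 (SE 0.19; adjusted p by limma 0.170) and stayed between -0.58 and -0.44 whichever library was left out. Centred on Sertoli cell genes it was 0.18.

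By level, the genes ran from Jund with a mean of 62.0 FPKM over the 4 libraries, through Junb (19.2), Ier2 (15.4), Jun (13.7), Dusp1 (7.99), Zfp36 (7.30), Egr1 (4.04), Fos (2.50) and Atf3 (1.54), to Fosb with 0.782 FPKM. Among the 9 pairs of neighbours in this order, the ranges over libraries overlapped for 8, and Jund lay above Junb in every library. Within single libraries, 4 of those 8 pairs kept their order in all 4 (Jun above Dusp1, Zfp36 above Egr1, Egr1 above Fos and Atf3 above Fosb), and the other 4 did not. From the steps of the lowest values a depth of 12.5 to 14.0 M fragments (M being 1000000) was estimated for each library, which with annotated exon lengths gives about 1158 to 1768 fragments for Jund and 20 to 162 for Fos. The authors' own gene lengths are not stated, so these fragment numbers are approximate.

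Of the 9 tested genes, 0 passed the limma adjusted threshold of 0.05 in either direction, and neither did any other gene (0.0% of 19837 higher and 0.0% lower). Before adjustment, Fos and Dusp1 had a limma p under 0.05 and a lower level, which is 2 of 9, where 9.96% of all tested genes did so and 18.0% had such a p with a higher level. In 4 of the 9 (Fos, Jun, Zfp36 and Dusp1) both Cus-1 libraries lay below both busulfan libraries, against 31.7% of all tested genes with that order and 36.6% with the opposite one (68.4% in either direction). The other 5 overlapped. An exact two-sided permutation test of 1 gene in 2 against 2 libraries cannot go below 0.333. The median log2 fold change of the 9 was -0.66, beside 0.04 for all tested genes; it was -0.40 without busulfan 1, -0.37 without Cus-1 1 and -1.04 without busulfan 2, and with libraries centred on Sertoli cell genes it was 0.03, when that of all genes was 0.73.

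**Figure D2:**
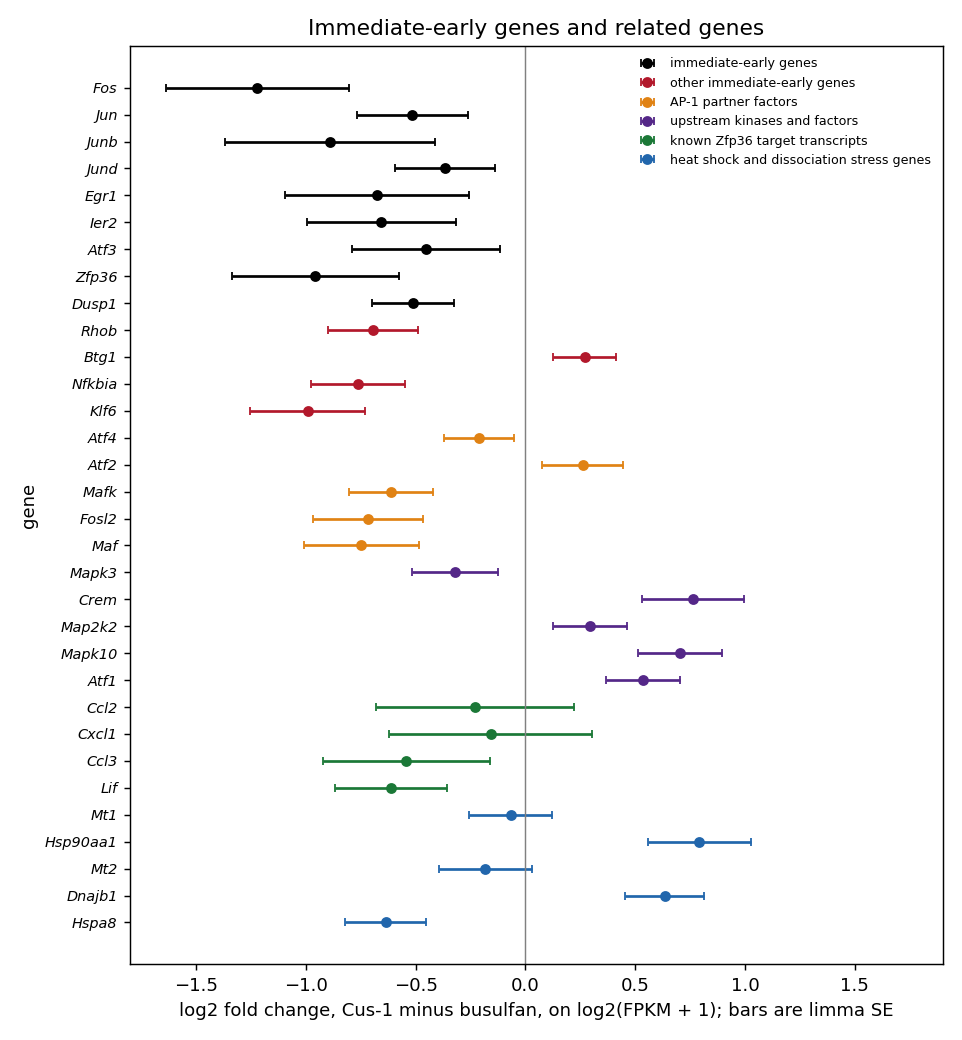
Log2 fold change (Cus-1 minus busulfan on log2(FPKM + 1)) of the 9 tested immediate-early genes and of related genes, with limma standard errors as bars; colours mark the gene lists. All 9 immediate-early genes lie left of 0, with Fos the farthest at -1.22, while Crem, Mapk10 and Hsp90aa1 lie to the right.

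Spread within the groups was wide for most of these genes. Between the busulfan libraries the median absolute difference of the 9 was 0.76 log2 units, against 0.26 for all tested genes, and between the Cus-1 libraries it was 0.61 against 0.25. Of the 9, 7 exceeded the upper quartile of all tested genes in the busulfan pair and 6 in the Cus-1 pair. In both pairs 5 did (Fos, Junb, Egr1, Ier2 and Zfp36), where 10.4% of all tested genes did. The Junb difference of 0.98 between the busulfan libraries was exceeded by 5.42% of tested genes, and its difference of 1.04 between the Cus-1 libraries by 6.61%. Reads of the bases that Junb shares with the more abundant Prdx2 may enter these Junb values. Jun and Dusp1 had busulfan libraries within 0.01 log2 units of each other. For 6 of the 9 a within-group difference was larger than the difference between group means, as it was for 46.2% of all tested genes.

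The spread had a direction in each group. Busulfan 1 was above busulfan 2 for 7 of the 9, against 46.3% of all tested genes, and Cus-1 1 was below Cus-1 2 for all 9, against 48.4%. Busulfan 1 was the highest and Cus-1 1 the lowest library for 7 of the 9, an order shown by 23.7% of all tested genes, with the exact opposite order in 28.3%. Busulfan 2 and Cus-1 2 were closer to each other than either was to the other library of its group for 7 of the 9, against 32.4%. The median difference of Cus-1 2 from busulfan 2 was 0.00 log2 units, while the median difference of busulfan 1 from Cus-1 1 was 1.31.

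**Figure D3:**
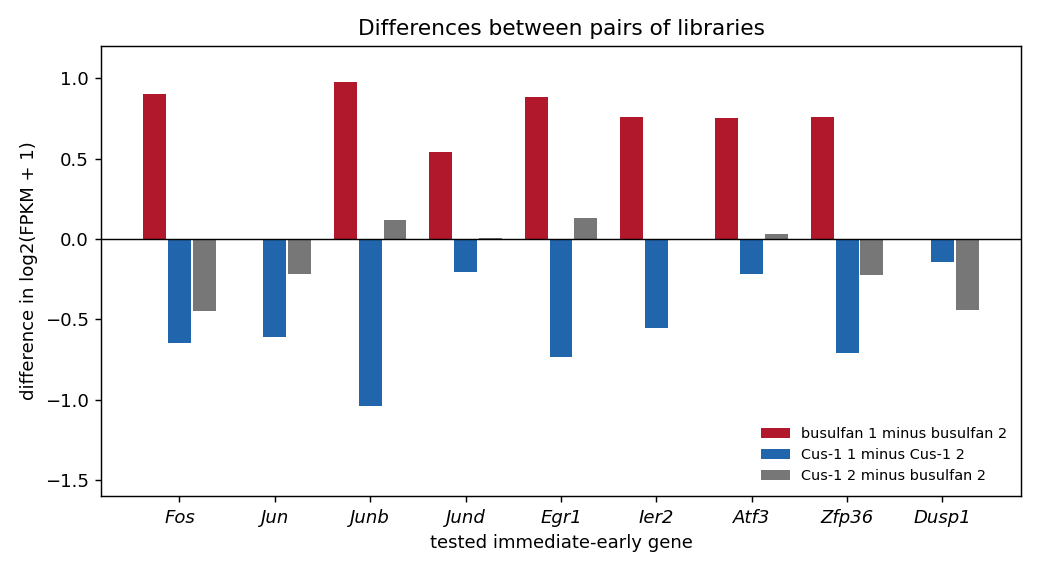
Difference in log2(FPKM + 1) between the libraries of each group (red and blue) and between busulfan 2 and Cus-1 2 (grey) for the 9 tested immediate-early genes; each bar is 1 pair of libraries. Red bars are positive for 7 genes and near 0 for Jun and Dusp1, blue bars are negative for all 9, and grey bars are the shortest for most genes.

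Markers of several somatic cell types of the testis had the same library order as the immediate-early genes. Spermatocyte and spermatid markers were low in busulfan 1 and high in Cus-1 1, but did not mirror the immediate-early genes across all 4 libraries. The 8 macrophage markers summed to 458 and 333 FPKM with busulfan and to 215 and 299 FPKM with Cus-1. All 8 had busulfan 1 highest and Cus-1 1 lowest, an order shown by 23.7% of all tested genes. The 8 Sertoli markers summed to 4632 and 3248 against 2195 and 2744 FPKM, with that order for 7 of 8, and the 6 stromal markers to 443.6 and 266.5 against 178 and 230.2 FPKM, with that order for 5 of 6. The 7 endothelial markers summed to 71.5 and 53.6 against 37.2 and 43.4 FPKM, with that order for 4 of 7. The 7 Leydig markers differed in that only 1 had busulfan 1 above busulfan 2. The median excess of busulfan 1 over Cus-1 1 was 1.22 log2 units for stromal, 1.11 for macrophage and 0.98 for Sertoli markers, beside the 1.31 of the immediate-early genes. For Cus-1 2 minus busulfan 2 the median was -0.43 for Sertoli, -0.36 for Leydig, -0.32 for stromal, -0.29 for endothelial, -0.16 for macrophage and 0.15 for peritubular myoid markers, and 0.00 for the immediate-early genes. The 6 peritubular myoid markers had a median log2 fold change of -0.28, with 4 of them in the order of busulfan 1 highest and Cus-1 1 lowest, and Actg2, a smooth muscle actin chosen after its values were seen, at 1.13. The 7 spermatocyte markers summed to 1376 and 2068 FPKM with busulfan and to 3283 and 2979 FPKM with Cus-1. Their median centred on each gene's mean was 0.54 log2 units in both Cus-1 libraries. The 5 round spermatid markers summed to 34.5 and 60.6 against 147 and 79.3 FPKM. The 5 elongating spermatid markers summed to 2937 and 2994 against 10900 and 3930 FPKM, so the busulfan libraries were near level and Cus-1 1 stood farthest apart. The 5 spermatogonial markers were mixed, with a median log2 fold change of -0.25, of which 3 were negative. In these bulk samples fewer cells of a type and less RNA per cell cannot be told apart, and the part of cell mixture in the immediate-early values was not tested.

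**Figure D4:**
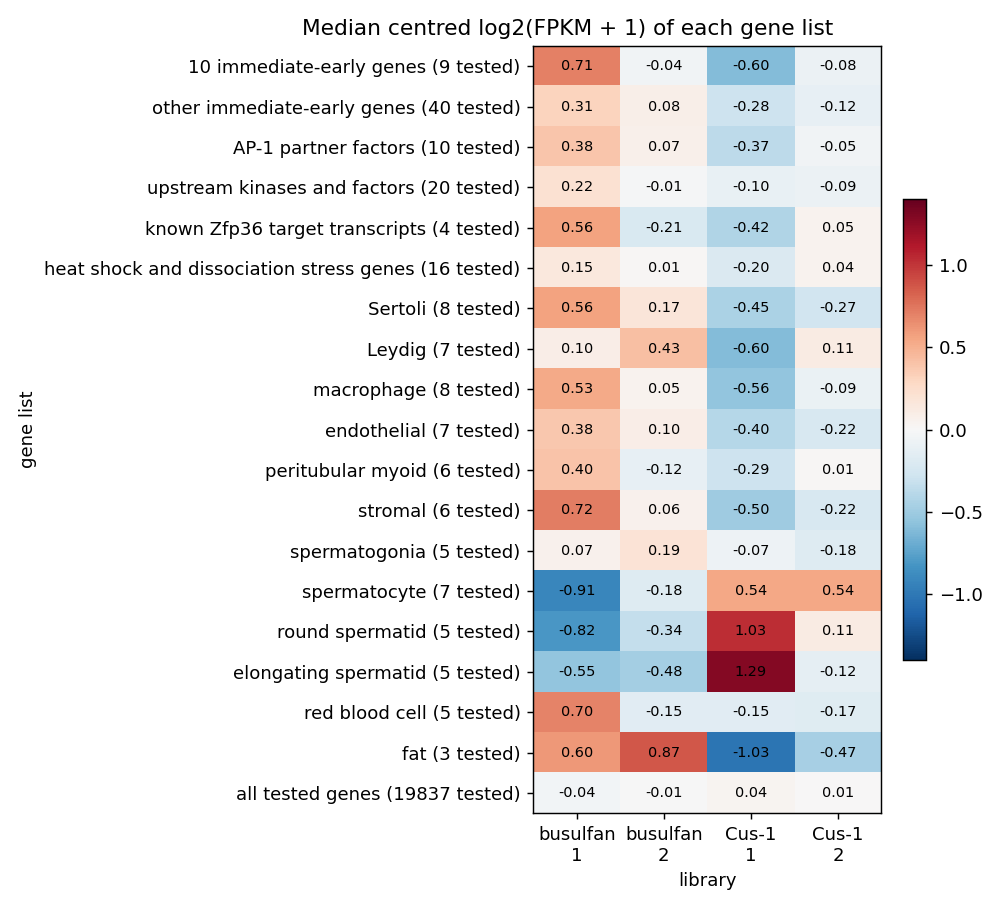
Median over the tested genes of each list of log2(FPKM + 1) minus the gene's mean over the 4 libraries, by library; red is above and blue below that mean. The immediate-early row (0.71, -0.04, -0.60 and -0.08) resembles the macrophage and stromal rows, and the spermatocyte and spermatid rows have the opposite sign in busulfan 1 and Cus-1 1.

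Red blood cell markers, which depend on how much blood a dissected organ holds, summed to 581 FPKM in busulfan 1 and to 309, 293 and 262 FPKM in busulfan 2, Cus-1 1 and Cus-1 2, so they set busulfan 1 apart but not Cus-1 1. The haemoglobin genes among them have near-identical copies. Lymphocyte markers other than Cd3d stayed under 1 FPKM in every library, as did all 4 skeletal muscle markers and the 2 epididymis markers in the table (Adam7 and Crisp1). The 4 fat markers summed to 15.7 and 24.2 FPKM with busulfan and to 6.10 and 10.6 FPKM with Cus-1. Log2 fold changes of the 3 tested were -1.54 for Fabp4, -1.54 for Car3 and -0.46 for Plin1. Fabp4 and Car3 had both Cus-1 libraries lower, as did 31.7% of all tested genes, and Plin1 overlapped. Markers of Sertoli, Leydig, spermatogonial, spermatocyte and spermatid cells were all detected, which are cells of the labelled tissue.

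Heat shock and metal response genes, some of which respond to handling and warming of tissue as immediate-early genes do, had a narrower spread. The list also holds Hspa8, which is constitutive, and Hsp90aa1, which is also abundant in germ cells. Its spread is therefore not a measure of handling. The median absolute difference of the 16 genes was 0.28 log2 units between the busulfan and 0.18 between the Cus-1 libraries, near the 0.26 and 0.25 of all tested genes. Hspa1a, an inducible Hsp70 chosen with its copy after their values were seen, measured 5.76 FPKM in busulfan 1, 4.64 in busulfan 2, 5.10 in Cus-1 1 and 5.21 in Cus-1 2. Its near-identical copy Hspa1b was at 8.0 and 3.76 against 4.20 and 4.28 FPKM, and reads may be split between the copies. Thus busulfan 1 was highest for both, and Cus-1 1 was within the range of the others for both. Over the list, however, 7 of the 16 genes had busulfan 1 highest and Cus-1 1 lowest, against 23.7% of all tested genes, and 13 had Cus-1 1 below Cus-1 2, against 48.4%. The small heat shock gene Hspb1, chosen after its values were seen, was among those 7 at 147.24 and 99.0 against 61.65 and 81.04 FPKM (log2 fold change -0.76). The metallothionein Mt1, which binds zinc and copper, was at 773 and 691 against 656 and 741 FPKM (log2 fold change -0.07, SE 0.19) and Mt2 at 558 and 443 against 395 and 485 FPKM (-0.18, SE 0.21). Their groups overlapped. The list held 2 genes lower and 2 higher at an unadjusted p under 0.05, shares near those of all tested genes. Hsp90aa1, an inducible Hsp90 also abundant in germ cells, had a log2 fold change of 0.79 (SE 0.23; adjusted p by limma 0.152), and Dnajb1, an Hsp40 co-chaperone, 0.63 (SE 0.18; adjusted p by limma 0.152). Hspa8, the constitutive Hsp70, had -0.64 (SE 0.18; adjusted p by limma 0.152). The labels give no dissection time, order or batch, so the part of tissue handling in the spread of the immediate-early genes was not tested.

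A wider set of immediate-early genes was read against the same shares of all tested genes (47.6% with a negative log2 fold change, 9.96% lower and 18.0% higher at an unadjusted p under 0.05). Of its 45 genes 40 were tested; 32 had a negative log2 fold change, 12 were lower and 1 was higher at an unadjusted p under 0.05, and 0 passed the adjusted threshold (median -0.42). Klf6, a zinc finger factor induced by injury, measured 25.14 FPKM in busulfan 1, 19.46 in busulfan 2, 8.59 in Cus-1 1 and 13.10 in Cus-1 2 (log2 fold change -0.99, SE 0.26; adjusted p by limma 0.152). Nfkbia, the inhibitor of NF-kB, was at 60.09 and 42.56 against 27.54 and 31.38 FPKM (-0.76, SE 0.21). Rhob, a small GTPase, was at 70.12 and 62.68 against 34.42 and 47.69 FPKM (-0.70, SE 0.21). In these 3 genes the groups did not overlap and busulfan 1 was again highest and Cus-1 1 lowest. They had the smallest limma p of the list, a choice that favours groups without overlap. Of the 40 tested, 23 had both Cus-1 libraries lower and 5 had both higher, against 31.7% and 36.6% of all tested genes. Busulfan 1 was highest and Cus-1 1 lowest for 20 of the 40, against 23.7%. Btg1, an antiproliferative gene and the second of the list by mean FPKM, had the opposite sign, at 48.03 and 48.54 against 61.70 and 55.33 FPKM (0.27, SE 0.14).

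Partners that can pair with Fos and Jun proteins were also measured. Of 14 partner genes 10 were tested, 9 with a negative log2 fold change, 3 of them lower at an unadjusted p under 0.05 and 0 higher (median -0.39), beside the 9.96% and 18.0% of all tested genes. These were Fosl2, a Fos relative, at 6.21 and 4.78 against 2.52 and 3.39 FPKM (-0.72, SE 0.25), Maf at -0.75 (SE 0.26) and the small Maf protein gene Mafk at -0.61 (SE 0.19). Atf4, the integrated stress factor and the most abundant of the list, had -0.21 (SE 0.16), and Atf2, a CRE-binding partner of Jun, had 0.26 (SE 0.19) with overlapping groups. None passed the limma adjusted threshold.

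The kinases and factors upstream of the immediate-early genes went both ways. All 20 were tested, with 12 negative log2 fold changes and with 3 lower and 3 higher at an unadjusted p under 0.05, shares near those of all tested genes, and 0 past the adjusted threshold (median -0.26). Crem, a CRE-binding factor with a testis isoform that drives genes of spermatids, measured 48.15 FPKM in busulfan 1, 70.24 in busulfan 2, 109.25 in Cus-1 1 and 90.46 in Cus-1 2 (log2 fold change 0.76, SE 0.23; adjusted p by limma 0.152). Atf1, a close relative of CREB, had 0.53 (SE 0.17), and the JNK gene Mapk10 had 0.70 (SE 0.19). The ERK gene Mapk3 was at 104.42 and 76.69 against 72.16 and 70.76 FPKM (-0.32, SE 0.19), and its activator Map2k2 had 0.29 (SE 0.17). Across the 4 libraries Crem, Atf1 and Map2k2 ran in the reverse order of Fos, with busulfan 1 lowest and Cus-1 1 highest. Busulfan 1 was lowest and Cus-1 1 highest for 28.3% of all tested genes. Crem and Atf1 were named for their small limma p, a choice that favours groups without overlap.

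Inflammatory transcripts that Zfp36 is known to destabilise were near the lower limit of the table. Of 11 such genes 4 reached the filter, and all 4 had a negative log2 fold change, as did 47.6% of all tested genes. None of the 4 had an unadjusted limma p under 0.05, where 9.96% of all tested genes were lower and 18.0% higher. With 4 genes these counts say little about the list. The chemokine gene Ccl2 measured 5.79 FPKM in busulfan 1, 1.85 in busulfan 2, 2.58 in Cus-1 1 and 2.93 in Cus-1 2 (-0.23, SE 0.45), and Cxcl1 had -0.16 (SE 0.46). Ccl3 had -0.54 (SE 0.38), and the cytokine gene Lif had -0.61 (SE 0.25). Busulfan 1 was the highest library for Ccl2, Cxcl1 and Ccl3, but for Ccl2 and Cxcl1 the lowest was busulfan 2. Cus-1 1 was the lowest for Ccl3 and Lif. Only 1 of the 4, Ccl3, had busulfan 1 highest and Cus-1 1 lowest, an order shown by 23.7% of all tested genes.

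The gene profiles most like that of Fos were sought among the 12364 tested genes with a mean of at least 5 FPKM, by Euclidean distance over the 4 libraries between log2 values centred on their mean. The nearest 5 were Gm49327 (distance 0.18 log2 units), Kcnab1, a potassium channel subunit (0.19), Tgfbr3, the co-receptor betaglycan (0.22), Vwa5a (0.24) and Myzap (0.26). Tgfbr3 measured 44.04 FPKM in busulfan 1, 27.52 in busulfan 2, 12.48 in Cus-1 1 and 20.33 in Cus-1 2. Among the immediate-early genes Zfp36 was nearest to Fos (0.29), with 8 genes of the table nearer, followed by Junb (0.44, 52 genes nearer) and Egr1 (0.55, 155 nearer). Ier2 (0.58, 199 nearer) and Atf3 (0.83, 1252 nearer) came next. Jund, Jun and Dusp1 were the least near, at 0.946, 0.955 and 1.019, with 2078, 2145 and 2652 of the 12364 genes nearer. With 4 libraries many genes share a profile, so nearness in this list is a description only.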

How the data were processed

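The authors deposited 1 table of FPKM values by gene symbol, printed to 2 decimals for the 4 libraries. The submitters' processing notes name mm10 as the build. The sources used here do not name the aligner, counter, annotation or strand setting. Columns were tied to samples by library name. Of 45536 rows with values, 910 had no gene name (0.641% to 0.688% of summed FPKM) and were left out. For 115 repeated symbols the row with the highest mean was used. Summed FPKM was 726041 to 742689 per library.

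A gene was tested if at least 2 libraries had 1 FPKM or more. Tests used limma 3.58.1 (R 4.3.3) with a trend of variance on mean, a pseudocount of 1, and Benjamini-Hochberg adjustment across the 19837 genes at a threshold of 0.05; the code was tested on simulated data. Depth was estimated from the steps of low values in genes with 1 transcript of 300 to 2000 bases. Positions are from GENCODE M21, which uses the same build, and promoters from RefSeq. The 10 genes, the 5 pathway lists and the 15 cell type lists were chosen with earlier results of these data known. The rule for named genes took all 10, the 3 most abundant and the 3 with the smallest p of each pathway list, and the 5 profiles nearest to Fos. Alternatives varied pseudocount, filter, scaling, trend and libraries.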

Additional observations from a re-analysis of the deposited data

How the results depend on the processing

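No immediate-early gene passed the adjusted threshold under any of the 12 alternatives. Over all genes 0 to 7 passed when 1 library was left out (7 without Cus-1 1), and 2 passed after centring each library on Sertoli markers. Genes with an unadjusted limma p under 0.05 numbered 3576 higher and 1975 lower; without 1 library they ran from 1159 to 3821 higher and from 426 to 1996 lower, and after Sertoli centring they were 9012 and 62. Immediate-early genes with such a p numbered 2, 3 under trimmed-mean scaling, 3 under quantile normalization, 0 after Sertoli centring and 1 with no filter. With a 5 FPKM filter the number was 1, but only 6 of them were tested there and Fos was not among those. Immediate-early genes with groups that did not overlap numbered 4, 6 under trimmed-mean scaling, 7 under quantile normalization and 3 after Sertoli centring. They numbered 4 to 9 without 1 library, where a group of 1 overlaps less readily. Of all tested genes 31.7% were apart and lower and 36.6% apart and higher in the main fit. Those shares were not computed under the alternatives, so the shifts cannot be read as particular to the immediate-early genes. The median of the immediate-early genes was -1.04 to -0.37 without 1 library and 0.034 after Sertoli centring, and it lay between -0.72 and -0.40 under the other alternatives. A fit with 1 library left out assumes that the lone library of its group varies like the other group.

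Sertoli centring gave the opposite sign for Jun (0.17), Jund (0.32), Egr1 (0.013), Ier2 (0.034), Atf3 (0.24) and Dusp1 (0.18). It did so too for Atf4 (0.48), Mafk (0.076), Mapk3 (0.37), Ccl2 (0.46), Cxcl1 (0.53), Ccl3 (0.15), Lif (0.077), Mt1 (0.62), Mt2 (0.51) and Hspa8 (0.052). It lifts all genes by construction, their median from 0.04 to 0.73. Fos, Junb and Zfp36 kept negative values there. With 1 library left out, Ccl2 ran from -0.86 without busulfan 2 to 0.40 without busulfan 1, Cxcl1 from -0.71 without busulfan 2 to 0.39 without busulfan 1, and Mt1 from -0.155 (Cus-1 2 left out) to 0.019 (Cus-1 1 left out). Under quantile normalization Mt1 was at 0.001. Apart from Sertoli centring, the direction of all 9 immediate-early genes held under every alternative in which they were tested. No paired analysis was possible because the labels give the groups no shared replicate numbers. Low levels limit Fos, Fosb and Atf3 most, since few fragments lie behind them.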

Other observations

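Some wider immediate-early genes, chosen after their values were seen, add to the picture. Cebpd, a factor of the acute phase response, measured 13.11 FPKM in busulfan 1, 9.07 in busulfan 2, 3.28 in Cus-1 1 and 7.08 in Cus-1 2, Socs3, the feedback inhibitor of cytokine signalling, at 6.86 and 3.44 against 1.43 and 2.58 FPKM, and the Zfp36 relative Zfp36l1 at 46.73 and 27.73 against 13.67 and 23.55 FPKM. Their log2 fold changes were -1.02, -1.002 and -0.96, and in each of them busulfan 1 was highest and Cus-1 1 lowest.

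Of the 40 tested genes of the wider list, 8 had a positive log2 fold change. Both Cus-1 libraries were higher for 5 of the 40, against 36.6% of all tested genes. The 3 given here were chosen after their values were seen. Arc, known in neurons as an activity-induced gene, measured 22.40 FPKM in busulfan 1, 33.25 in busulfan 2, 57.55 in Cus-1 1 and 37.93 in Cus-1 2, and it was the 1 gene of the wider list that was higher at an unadjusted limma p under 0.05 (log2 fold change 0.75). Klf4, a Krüppel-like factor known in mouse spermatids and Sertoli cells, was at 7.97 and 8.99 against 14.70 and 9.33 FPKM. Egr3, an Egr1 relative, was at 1.05 and 0.85 against 2.37 and 0.89 FPKM, so its groups overlapped. For these 3 genes Cus-1 1 was the highest library, where it was the lowest for 9 of the 10 immediate-early genes.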
